A study of Drosophila melanogaster with 58 samples.

Results

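The genes described are jus, jdp and Pxn, 3 of the 12453 genes in a count table from mushroom body neurons of the fruit fly Drosophila melanogaster. They were selected on their measured levels, which were higher at 30 h than at 18 h after pupa formation, so that difference is given here as a description and carries no test. All 3 had counts in 58 of 58 libraries and passed the filter on low counts that left 10072 genes.

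The study profiled alpha-beta neurons while they first extend axons and gamma neurons while they regrow axons pruned earlier in metamorphosis. Pupal groups were taken at 18, 21, 24, 27 and 30 h, and adults at 3 to 5 days after eclosion; flies were reared at 25 °C and both sexes were mixed. Each library was made from 1000 GFP-positive cells sorted from dissociated brains, with oligo-dT priming and PCR amplification, and the labels used here name neither the driver of the GFP nor any mutant allele or drug. There were 30 alpha-beta libraries (5, 5, 6, 4, 5 and 5 in the order of the stages) and 28 gamma libraries (5, 5, 5, 3, 5 and 5). Nothing in the labels says whether libraries of a group came from separate flies, so p-values measure the spread between libraries, which may be technical.

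The mushroom body is the insect brain centre for olfactory learning, and its intrinsic neurons, the Kenyon cells, send long parallel axons into lobes. The 3 genes act in different places in a cell. Julius seizure (jus) encodes a transmembrane protein whose loss makes flies bang-sensitive, which means that a mechanical shock brings on a seizure. The J domain of jdp marks its protein as a co-chaperone of Hsp70, and its human relative DNAJC12 assists the aromatic amino acid hydroxylases that feed dopamine and serotonin synthesis. Peroxidasin (Pxn) is a secreted haem peroxidase that crosslinks collagen IV in basement membranes, and in fly embryos it is best known as a product of hemocytes, the blood cells. In the Ensembl annotation jus and jdp lie on chromosome arm 3R and Pxn on 3L, and CG11898 overlaps a jus exon and CG16986 a Pxn exon on the opposite strand. The sources used here do not say whether counting used strand. Counts of CG16986 came to between 7.24% of those of Pxn in gamma neurons at 30 h and 38.1% in adult alpha-beta neurons, and CG11898 was not analysed here.

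Total counts ran from 4403619 to 27242758 per library. Levels are CPM, which are counts scaled to an equal library total and by TMM factors, and 3 counts of the total correspond to 0.11 to 0.681 CPM, which covers counting error only. The Kenyon cell genes ey and dac and the neuronal gene elav had counts in 58 of 58 libraries. The summed level of 10 mushroom body markers, mamo being the most abundant (mean 5231 CPM), ran from 3210 to 15359 CPM. The lowest of these sums was in alpha-beta neurons at 24 h, replicate 6, which also had the highest glial marker sum of the pupal alpha-beta libraries, 356 CPM. Summed over 10 markers, the glial level was 25.4 to 451 CPM in pupae and 414 to 2415 CPM in adults, carried mostly by Gs2, a glutamine synthetase, while repo, the defining glial transcription factor, was at 0 in 5 of 5 adult alpha-beta libraries and at most 31.2 CPM anywhere. Fewer cells of a type and less RNA per cell cannot be told apart in such sorted pools.

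The level of jus in alpha-beta neurons was low at 18 h and spread from replicate to replicate. At 18 h the 5 replicates had 17.9, 2.81, 6.67, 13.4 and 10.02 CPM, and at 30 h they had 136, 145, 184, 30.6 and 98.8 CPM. Every library at 30 h was above every library at 18 h, although replicate 4 at 30 h lay far under the others. Such separation upward held for 1.14% of all genes tested, and 0.0695% were called higher, but the contrast chose the gene. The mean went from 10.2 ± 5.86 CPM (SD, n = 5) to 119 ± 57.8 CPM (SD, n = 5), a log2 fold change of 3.54 (SE 0.65), or 11.7-fold.

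Between these ends the alpha-beta level of jus did not climb evenly. The 21 h replicates held 15.1, 31.1, 67.2, 9.98 and 5.02 CPM, and so overlapped with 18 h. At 24 h the 6 libraries ranged from 47.9 to 78.0 CPM with a median of 64.4 CPM, all above all those at 18 h (0.199% of genes separated so). Replicates 1, 3, 4 and 5 at 27 h held 31.8, 71.3, 18.0 and 46.4 CPM. The lowest of them, at 17.96 CPM, was barely above the highest 18 h library, at 17.93 CPM (1.43% of genes separated so). On the log2 scale 37.7% of the 18 to 30 h difference was present at 21 h, 75.01% at 24 h and 57.6% at 27 h. The log2 fold changes over 18 h behind these shares had standard errors of 0.60 to 0.65.

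In gamma neurons the pupal levels of jus overlapped at every pair of stages that was compared. Values at 18 h were 49.3, 6.04, 13.3, 8.16 and 2.54 CPM, and those at 30 h were 27.5, 41.05, 102, 46.3 and 29.0 CPM. Replicate 1 at 18 h stood above 4 of the 5 libraries at 30 h, and replicate 3 at 30 h stood above its own group. The log2 fold change was 1.64 (SE 0.61), or 3.11-fold, of which 84.4% was present at 21 h, 72.1% at 24 h and 125% at 27 h. Standard errors of the log2 fold changes over 18 h were 0.60 to 0.67. The gamma libraries held 37.4, 19.8, 66.6, 13.4 and 68.9 CPM at 21 h, then 13.9, 14.3, 10.1, 93.3 and 47.2 CPM at 24 h, and 51.6, 36.4 and 109 CPM at 27 h in replicates 2, 3 and 4. No order of these middle stages was visible beyond the spread within them.

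Adult neurons of both types held far more jus mRNA than any pupal library. The adult alpha-beta replicates had 1100.4, 923, 882, 853 and 815 CPM, and the adult gamma replicates had 1195, 875, 554, 1224 and 807 CPM. The lowest adult value, 554 CPM, was above the highest pupal value, 184 CPM, and against 30 h alone 4.78% of genes separated upward in this way for alpha-beta and 3.6% for gamma neurons. To keep clear of the libraries that chose the genes, the adult level was tested against 27 h with edgeR quasi-likelihood F-tests, two-sided, adjusted over all 10072 genes, with a call at an adjusted p under 0.05. In alpha-beta neurons jus rose 21.8-fold (log2 fold change 4.45, SE 0.75, edgeR adjusted p = 1.42e-05), where 4.43% of genes were called higher and 5.57% separated upward. In gamma neurons it rose 14.2-fold (log2 fold change 3.83, SE 0.82, edgeR adjusted p = 0.00113), where 3.02% were called higher and 4.79% separated upward. The ratio of adult to 27 h within sets of libraries that are neighbours on the sample sheet was 12.4 to 45.4 in 4 of 4 sets for alpha-beta and 7.42 to 16.96 in 3 of 3 for gamma. Over the same step the glial marker sum went from 81.3 to 138 CPM at 27 h to 428 to 2382 CPM in adult alpha-beta libraries, and from 130 to 402 CPM to 414 to 2415 CPM in gamma libraries. Of the 10 glial markers, Gs2 rose and wrapper fell in alpha-beta neurons, where 4.43% of all genes were called higher and 7.67% lower. In gamma neurons 0 of the 10 were called, beside 3.02% of all genes higher and 4.27% lower, and the part of glial markers in the adult levels of jus and jdp was not tested. Neuronal genes rose as well, 3 of 5 in alpha-beta and 4 of 5 in gamma neurons, among them nSyb, the neuronal synaptobrevin, by 2.00 (SE 0.23) and 1.91 (SE 0.25) on the log2 scale. Mushroom body marker sums were 11024 ± 1793 CPM (SD, n = 4) at 27 h and 5214 ± 1614 CPM (SD, n = 5) in adults for alpha-beta, and 9830.07 ± 1644 CPM (SD, n = 3) and 11819 ± 2663 CPM (SD, n = 5) for gamma. Of these 10 markers, sNPF and rut rose and mamo and dac fell in alpha-beta neurons, and 4 rose and 0 fell in gamma neurons. The most abundant of them, mamo, had a log2 fold change of -3.23 in alpha-beta neurons. The part of these markers was not tested either.

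The adult step of jus was not shown to differ between the cell types. The difference of the log2 fold changes was -0.62, with a 95% interval from -2.46 to 1.22 and an edgeR adjusted p of 1.00, where 0.318% of genes were called in either direction. Adult levels themselves had means of 915 ± 111 CPM (SD, n = 5) in alpha-beta and 931 ± 281 CPM (SD, n = 5) in gamma neurons, which overlapped. Gamma against alpha-beta in adults gave a log2 fold change of 0.03 (95% interval -1.15 to 1.20, edgeR adjusted p = 1.00), and over 21, 24 and 27 h it gave 0.16 (95% interval -0.56 to 0.88, edgeR adjusted p = 1.00). Both intervals include differences in either direction, so the types were shown neither to differ nor to be alike.

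**Figure D1:**
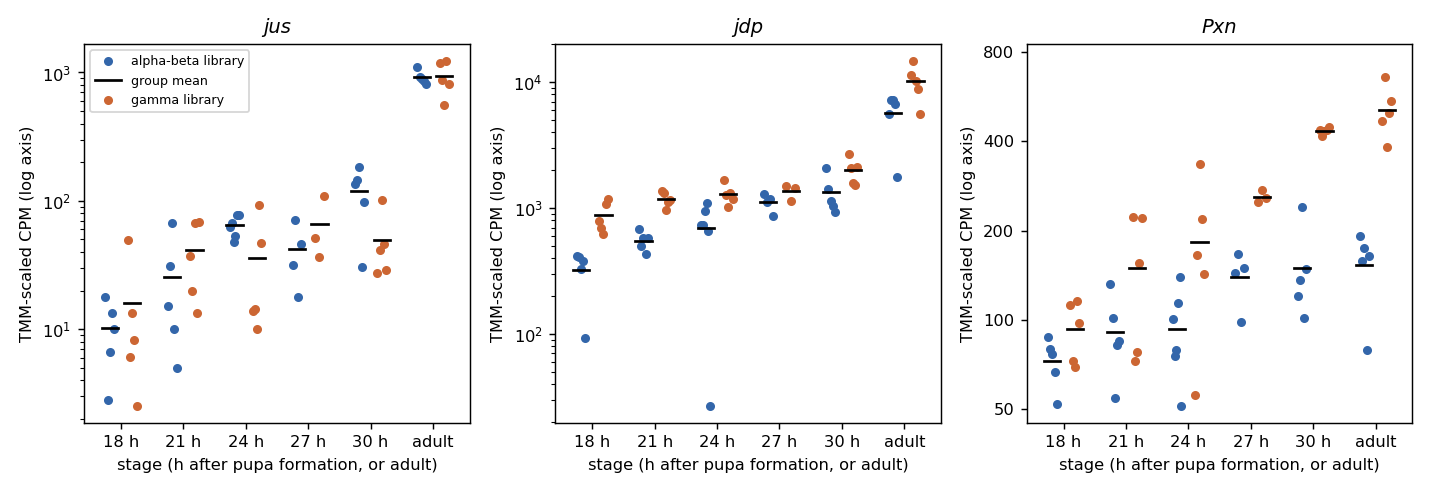
TMM-scaled CPM on a log axis for jus, jdp and Pxn against stage, with 1 point per library, alpha-beta libraries in blue, gamma libraries in orange and black bars for group means. Adult jus values sit between 554 and 1224 CPM in both cell types, 1 alpha-beta library at 24 h has 27.0 CPM of jdp, and the 5 gamma libraries at 30 h lie between 417 and 445 CPM of Pxn.

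The level of jdp differed from that of jus in being high from the first stage sampled. In alpha-beta neurons the replicates held 414, 405, 331, 379 and 93.0 CPM at 18 h and 2096, 1427, 1142, 1046 and 935 CPM at 30 h. Replicate 5 at 18 h was far under its group. No library at 30 h reached down to the 18 h range, as for 1.14% of genes, and 0.0695% of genes were called higher. The jdp difference from 18 to 30 h was 4.10-fold (log2 fold change 2.03, SE 0.40). Gamma replicates started higher, at 791, 693, 623, 1085 and 1178 CPM, and held 2682, 2082, 1586, 1520.3 and 2105 CPM at 30 h, again with no overlap (0.784% of genes separated upward and 0.0298% were called higher). The gamma log2 fold change was 1.19 (SE 0.39), or 2.28-fold.

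In alpha-beta neurons jdp climbed in steps. Libraries at 21 h held 679, 497, 573, 435 and 574 CPM, all above the 18 h range, as for 0.268% of genes. At 24 h, 5 of 6 libraries lay between 657 and 1100.0 CPM, and replicate 6 had 27.0 CPM, the lowest jdp value of the study, from 191 counts. The 27 h replicates held 1284, 1112, 1188 and 859.8 CPM. Of the log2 difference from 18 to 30 h, 37.6% was present at 21 h, 54.4% at 24 h and 87.3% at 27 h. The log2 fold changes over 18 h had standard errors of 0.37 to 0.41.

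In gamma neurons the jdp levels of the middle stages lay close together. The 21 h libraries ranged from 964 to 1374 CPM, the 24 h libraries from 1017 to 1657 CPM, and the 27 h libraries were at 1499, 1140.05 and 1437 CPM. These 3 stages overlapped with one another and with 18 h, and the shares of the log2 difference were 36.6%, 47.2% and 53.5%. Standard errors of the log2 fold changes over 18 h were 0.38 to 0.44. From 27 to 30 h there was no overlap between libraries, as for 0.854% of genes.

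Over the stages the choice of genes did not use, jdp at 27 h was 2.01-fold its level at 21 h in alpha-beta neurons. The log2 fold change was 1.01 (SE 0.40), each of the 4 libraries at 27 h lay above each of the 5 at 21 h, as for 0.576% of genes, and the ratio was 1.499 to 2.73 in 4 of 4 sheet sets. The edgeR adjusted p was 0.845, so the difference was not called. By edgeR 0% of genes were called in this comparison, with 590 genes at an unadjusted p under 0.05. DESeq2 called 240 genes, and jdp was not among them. The gamma libraries overlapped, and their log2 fold change, 0.20 with an SE of 0.44, was not called (edgeR adjusted p = 1.00). A difference between the cell types in this step was not shown (-0.81, 95% interval -2.02 to 0.40, edgeR adjusted p = 1.00).

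Adult neurons held the highest jdp levels. The alpha-beta replicates had 5591, 7186, 7220.0, 6646 and 1754 CPM, and the gamma replicates 11380.3, 14636, 10192, 8882 and 5604 CPM. Replicate 5 of the adult alpha-beta group lay inside the 30 h range, and it had the highest glial marker sum of its group, 2382 CPM, and the lowest mushroom body marker sum, 3463 CPM; the part of either in its jdp value was not tested. Against 27 h, jdp rose 5.11-fold in alpha-beta neurons (log2 fold change 2.35, SE 0.44, edgeR adjusted p = 8.14e-05) and 7.46-fold in gamma neurons (log2 fold change 2.90, SE 0.51, edgeR adjusted p = 5.55e-05). All adult libraries were above all 27 h libraries of their type, as for 5.57% of genes (4.43% called higher) in the alpha-beta comparison and 4.79% (3.02% called higher) in the gamma comparison. The steps were not shown to differ between types (0.55, 95% interval -0.66 to 1.75, edgeR adjusted p = 0.997).

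Mean jdp was higher in gamma than in alpha-beta neurons at each stage, and whether the difference was called depended on the fit. At 18 and 21 h every gamma library was above every alpha-beta library, as for 1.09% and 0.755% of genes, and at 24, 27 and 30 h and in adults the ranges overlapped. Over 21, 24 and 27 h the log2 fold change was 0.76 (SE 0.23, edgeR adjusted p = 0.0783), and in adults it was 0.84 (SE 0.39, edgeR adjusted p = 0.203). The first was called with sheet sets as a block (0.82, edgeR adjusted p = 0.0437) and by DESeq2 (0.78, adjusted p = 0.0141), and the second in neither. With replicate numbers as a block both were called by edgeR. Without replicate 6 of alpha-beta at 24 h the first became 0.67 with an adjusted p of 0.0229 (edgeR), while the other fits that left out 1 library gave up to 0.180. Within the 5 sheet sets gamma was higher in 5 of 5 in adults, by 1.23 to 3.19 times.

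A library of the fifth sheet set was the lowest of its group for jdp in 7 of the 12 groups, a pattern noticed after the values were seen. They were 5 of the alpha-beta groups, all but 27 h, and the gamma groups at 24 h and of adults. In each of these 7 groups that library also had the smallest total count, from 4403619 to 7997417. At 27 h it had the smallest total in both types without being the lowest for jdp. In gamma neurons at 18, 21 and 30 h its totals were 19341973 to 20987160, and it was not the lowest. The part of total counts in the pattern was not tested. Of all 10072 genes, 1.94% were lowest in that set in at least 7 groups, and the median gene was lowest there in 2. The set was left out because its jdp values were low, which by itself narrows the spread within groups, so the following values are no independent support. With the set left out, the log2 fold change of gamma against alpha-beta was 0.68 over 21, 24 and 27 h (edgeR adjusted p = 0.00716) and 0.76 in adults (edgeR adjusted p = 0.0488), both smaller than with the set, and the adult step stayed called in both types.

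**Figure D2:**
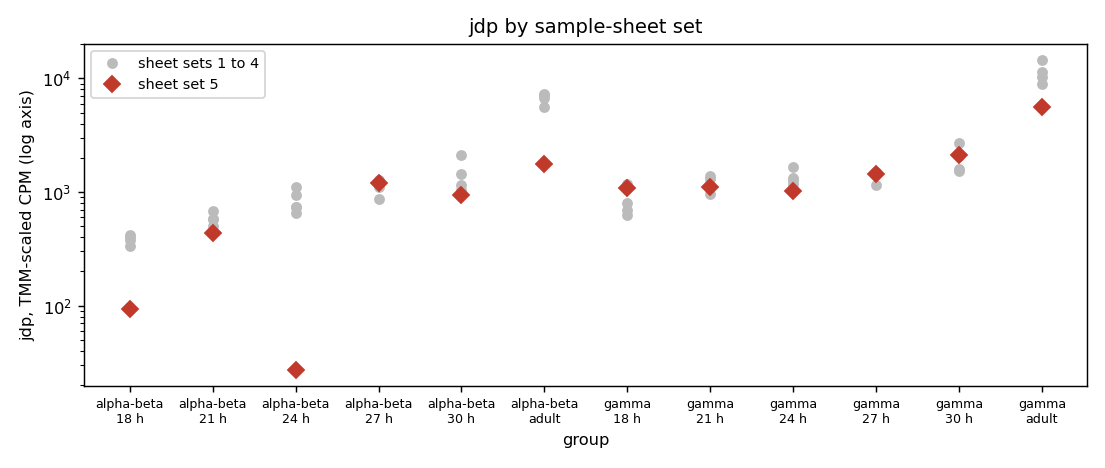
TMM-scaled CPM of jdp on a log axis in each of the 12 groups, with red diamonds for libraries of sheet set 5 and grey circles for sets 1 to 4. The diamond is the lowest point in 7 groups, with 93.0 CPM in alpha-beta at 18 h, 27.0 CPM at 24 h and 1754 CPM in alpha-beta adults.

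Between 18 and 30 h the Pxn level differed 4.64-fold in gamma and 2.05-fold in alpha-beta neurons. In gamma neurons the 18 h replicates held 112, 72.7, 69.2, 116 and 97.3 CPM, and the 30 h replicates held 435, 417, 432, 437 and 445 CPM. The groups did not overlap, as for 0.784% of genes, and the 30 h libraries were tightly placed, with an SD of 10.2 CPM around a mean of 433 CPM. Glial markers in the same gamma libraries summed to 127 ± 48.02 CPM (SD, n = 5) at 18 h and 299 ± 128 CPM (SD, n = 5) at 30 h, and their part in the Pxn values was not tested. On the log2 scale the 18 to 30 h difference was 2.21 (SE 0.34).

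Alpha-beta replicates held 87.3, 79.9, 76.8, 66.8 and 51.9 CPM at 18 h, and 121, 136, 239, 101 and 148 CPM at 30 h. The ranges did not overlap, as for 1.14% of genes, although replicate 4 at 30 h was close to replicate 1 at 18 h. This gave a log2 fold change of 1.04 (SE 0.33), and no test was made of its difference from the gamma value because the choice of genes used both. Alpha-beta glial sums were 120.2 ± 32.5 CPM (SD, n = 5) at 18 h and 73.4 ± 45.7 CPM (SD, n = 5) at 30 h.

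Pxn libraries of the middle stages varied within both types. Gamma libraries at 21 h held 221, 72.7, 77.9, 156 and 221 CPM and at 24 h 55.6, 165, 335, 219.5 and 142 CPM, so both groups reached down into the 18 h range. At 27 h the gamma replicates 2, 3 and 4 held 249, 274 and 257 CPM, all above the 18 h and 21 h ranges, as for 1.94% and 2.6% of genes. Alpha-beta libraries at 21 h ranged from 54.5 to 132 CPM and at 24 h from 51.2 to 139.8 CPM, and the 27 h replicates held 144, 167, 98.4 and 149 CPM.

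On the log2 scale the gamma difference in Pxn accrued over the whole window. It stood at 30.8% at 21 h, 43.998% at 24 h and 66.7% at 27 h. In alpha-beta neurons 31.6% was present at 21 h, 35.2% at 24 h and 90.8% at 27 h. Each log2 fold change over 18 h had a standard error of 0.32 to 0.37. Neighbouring stages overlapped in both types, except 27 and 30 h in gamma neurons, where all libraries at 30 h were above all at 27 h, as for 0.854% of genes.

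**Figure D3:**
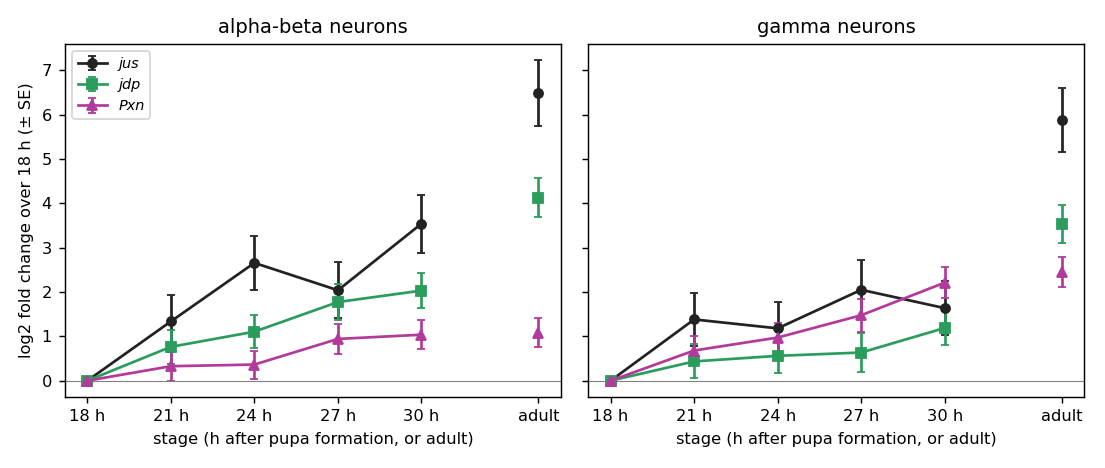
Log2 fold change over 18 h with its standard error for jus, jdp and Pxn at each stage, from the fit over all libraries, in alpha-beta neurons on the left and gamma neurons on the right; adults are set apart. Adult jus reaches 6.49 and 5.88, whereas Pxn goes from 1.04 at 30 h to 1.08 in alpha-beta adults and from 2.21 to 2.45 in gamma adults.

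From 21 to 27 h, stages whose part in choosing the genes is not known, Pxn was not called in either type. In gamma neurons the log2 fold change was 0.80 (SE 0.37, edgeR adjusted p = 0.585). All 3 libraries at 27 h were above all 5 at 21 h, as for 2.6% of genes. The ratio was 1.65 to 3.52 in 3 of 3 sheet sets. In alpha-beta neurons the log2 fold change was 0.62 (SE 0.35, edgeR adjusted p = 0.906), with overlap. In the gamma comparison edgeR called 0% of genes, with 773 at an unadjusted p under 0.05, and DESeq2 called 454, Pxn not among them. For jus the same steps gave 0.70 (SE 0.62) in alpha-beta and 0.67 (SE 0.67) in gamma neurons, both with overlap and an edgeR adjusted p of 1.00.

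Adult alpha-beta neurons stood at the 27 and 30 h level of Pxn. Their replicates held 191, 158, 175, 79.4 and 164 CPM, a mean of 154 ± 43.3 CPM (SD, n = 5) beside 139.5 ± 29.2 CPM (SD, n = 4) at 27 h. The log2 fold change against 27 h was 0.14, with a 95% interval from -0.56 to 0.84 (edgeR adjusted p = 0.906). That interval includes changes in both directions.

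Adult gamma neurons had more Pxn than the gamma libraries at 27 h, without passing the test. The adult replicates held 468, 656, 383, 497 and 548 CPM, all above the 3 libraries at 27 h, as for 4.79% of genes, and overlapped with 30 h. The log2 fold change was 0.97 (SE 0.39, edgeR adjusted p = 0.110). By DESeq2 the same comparison was called, at 0.95 with an adjusted p of 0.0383, edgeR fits without 1 library gave 0.108 to 0.258, and in the authors' deposited table it stands at 0.95 with an adjusted p of 0.0429. The cell types were not shown to differ in this step (0.83, 95% interval -0.20 to 1.87, edgeR adjusted p = 0.652).

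Pxn was called between the cell types in the fit over all libraries. In adults the gamma libraries, at 383 to 656 CPM, all lay above the alpha-beta libraries, at 79.4 to 191 CPM, as for 0.923% of genes. Pxn was 3.32-fold higher in gamma (log2 fold change 1.73, SE 0.34, edgeR adjusted p = 0.000862), where 2.11% of genes were called higher in gamma. Gamma was higher in 5 of 5 sheet sets, by 2.45 to 4.82 times. Mean glial marker sums in the same adult groups were 1121 ± 745 CPM (SD, n = 5) for alpha-beta and 1144 ± 814 CPM (SD, n = 5) for gamma, and the glial gene wrapper was called higher in gamma (edgeR adjusted p = 0.0490), with a count in 2 of 5 gamma and 1 of 5 alpha-beta libraries. Mushroom body marker sums in these libraries were 5214 ± 1614 CPM (SD, n = 5) in alpha-beta and 11819 ± 2663 CPM (SD, n = 5) in gamma adults. Of the 10 markers, mamo and Dop1R1 were called higher in gamma. The most abundant, mamo, had a log2 fold change of 2.38, and the median of the 10 was 0.78. The defining markers ey (0.36) and dac (0.19) were not called. The part of these markers in the Pxn difference was not tested.

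Before 30 h Pxn was higher in gamma neurons as well. Over 21, 24 and 27 h together the log2 fold change of gamma over alpha-beta was 0.86 (SE 0.20, edgeR adjusted p = 0.0124), or 1.82-fold, where 0.496% of genes were called higher. Without the fifth sheet set it was 0.65 and no longer called (edgeR adjusted p = 0.233), whereas it was called in each of the 28 fits that left out 1 library, with an adjusted p of up to 0.0397. Stage by stage, the gamma libraries were all above the alpha-beta libraries at 27 h and 30 h, as for 4.15% and 0.953% of genes, and overlapped with them at 18, 21 and 24 h. The described log2 fold changes were 0.36 at 18 h, 0.72 at 21 h, 0.97 at 24 h, 0.90 at 27 h and 1.54 at 30 h, with standard errors of 0.31 to 0.39.

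**Figure D4:**
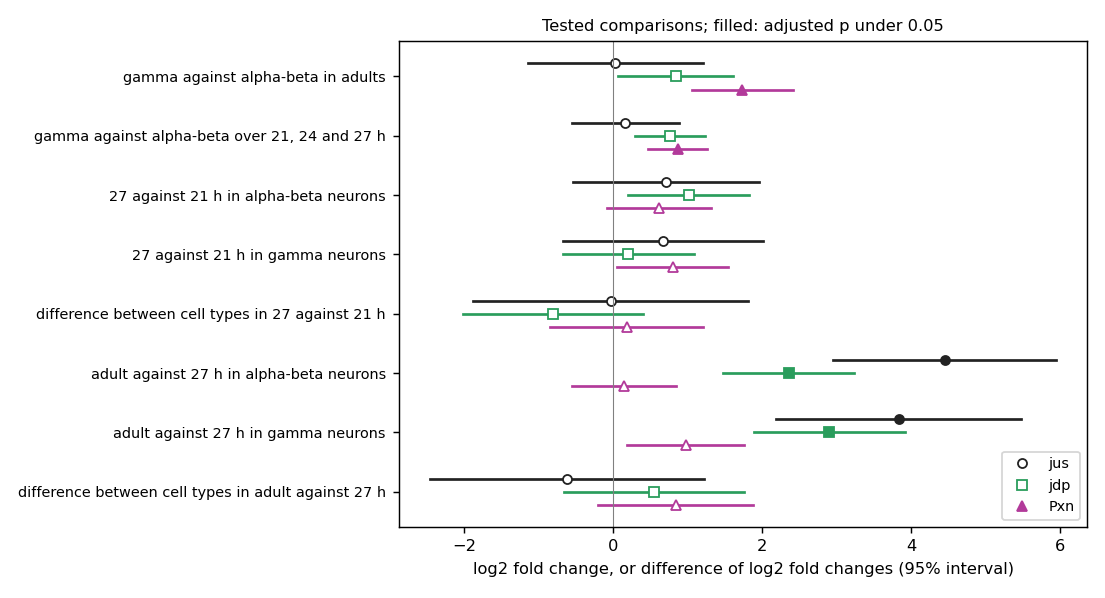
Log2 fold changes of jus, jdp and Pxn with 95% intervals in the 8 tested comparisons, 2 of which are differences between cell types in a step; filled symbols have an edgeR adjusted p under 0.05. The filled symbols are 6 of 24, namely jus and jdp in both adult steps and Pxn in both comparisons of gamma with alpha-beta neurons.

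Ordered by mean level over the 12 groups, jus ran from alpha-beta at 18 h (10.2 CPM), through gamma at 18 h and alpha-beta at 21 h, to the adults. Next came gamma at 24 h, gamma at 21 h, alpha-beta at 27 h, gamma at 30 h, alpha-beta at 24 h, gamma at 27 h and alpha-beta at 30 h. Of the 11 neighbouring pairs, 10 overlapped, and the gap that did not was from alpha-beta at 30 h to adult alpha-beta neurons. The order of jdp was alpha-beta at 18, 21 and 24 h, gamma at 18 h, alpha-beta at 27 h, gamma at 21 and 24 h, alpha-beta at 30 h, gamma at 27 and 30 h, adult alpha-beta and adult gamma neurons. Its neighbours overlapped in 9 of 11 pairs, the exceptions being 18 against 21 h in alpha-beta and 27 against 30 h in gamma neurons. For Pxn the order was alpha-beta at 18 and 21 h, gamma at 18 h, alpha-beta at 24, 27 and 30 h, gamma at 21 h, adult alpha-beta neurons, then gamma at 24, 27 and 30 h and in adults. Here 10 of 11 pairs overlapped, and the break was between 27 and 30 h in gamma neurons.

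The other bang-sensitive seizure genes were partly higher in adults too. Of 7 besides jus that were tested, 3 rose from 27 h to adult in each cell type and 0 fell, where 4.43% of all genes were called higher in alpha-beta and 3.02% in gamma neurons, and 7.67% and 4.27% lower. The list had a median log2 fold change of 1.27 in alpha-beta and 1.26 in gamma neurons, beside -0.13 and -0.08 for all genes. The genes that rose were Atpalpha, the catalytic subunit of the sodium pump, sesB, the mitochondrial ADP/ATP carrier, and para, the voltage-gated sodium channel. Atpalpha rose by 2.47 (SE 0.31, edgeR adjusted p = 2.22e-08) in alpha-beta and by 2.32 (SE 0.35, edgeR adjusted p = 2.18e-06) in gamma neurons. In alpha-beta neurons sesB rose by 1.27 (SE 0.20) and para by 1.38 (SE 0.38). Of the 7, 0 were called from 21 to 27 h, where 0% of all genes were called in either type, and 0 between the cell types, where 1.32% of all genes were called over 21 to 27 h and 3.6% in adults.

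The other J-domain co-chaperones, which stimulate Hsp70 as the J domain of jdp does, were tested over the adult step as well. Among the 18 tested, 0 rose and 2 fell in alpha-beta neurons, where 4.43% of all genes were called higher and 7.67% lower, and 0 were called in gamma neurons, where 3.02% were called higher and 4.27% lower, with list medians of 0.04 and -0.35. The members that fell were P58IPK, an endoplasmic reticulum co-chaperone, by 2.88 on the log2 scale (SE 0.80, edgeR adjusted p = 0.0100) and shv, a secreted J protein, by 1.72 (SE 0.52, edgeR adjusted p = 0.0196). The summed level of the 18 genes was 2401 ± 346 CPM (SD, n = 4) at 27 h and 3059 ± 647 CPM (SD, n = 5) in adults for alpha-beta neurons, and 2731 ± 141 CPM (SD, n = 3) and 2221 ± 890.3 CPM (SD, n = 5) for gamma neurons.

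Genes around the aromatic amino acid hydroxylases, which DNAJC12 serves in humans, were low in pupae. Of 4 tested, Ddc, the decarboxylase of dopamine and serotonin synthesis, rose in adults of both types, by 6.00 on the log2 scale in alpha-beta (SE 1.28, edgeR adjusted p = 0.000632) and by 7.17 in gamma neurons (SE 1.55, edgeR adjusted p = 0.00125), where 4.43% and 3.02% of all genes were called higher. Its level at 27 h was 2.47 to 27.1 CPM in alpha-beta libraries and 798 to 960 CPM in adult ones. The phenylalanine hydroxylase Hn was called lower in adult alpha-beta neurons, where it had 0 counts in 5 of 5 libraries, but 2 of 4 libraries at 27 h had a count at all, and 7.67% of all genes were called lower in that comparison. Tyrosine hydroxylase, ple, which was named after its values were seen, had counts in 19 of 58 libraries and at most 93.0 CPM, in an adult gamma library.

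Other basement membrane genes were mostly sparse where Pxn was not. Of the 14 others in the table, PH4alphaEFB, a prolyl hydroxylase of collagen, and Mp, a multiplexin collagen, had counts in 58 of 58 libraries, and 7 had counts in under 29 of the 58 libraries. The collagen IV genes Col4a1 and vkg, the substrates of the Pxn enzyme, had counts in 10 and 42 libraries and at most 27.5 and 87.5 CPM; they were named for that role after their values were seen. Among the 13 others tested, 0 were called between cell types over 21 to 27 h, where 1.32% of all genes were called. Their median log2 fold change of gamma over alpha-beta was 1.53 there, beside -0.05 for all genes, with most of them sparse. In adults both medians were 0. There 1 was called, the lysyl hydroxylase Plod, which was lower in gamma neurons, as were 1.49% of all genes. Plod had a count in 2 of 5 libraries of each adult group. PH4alphaEFB fell by 1.49 on the log2 scale from 27 h to adult in alpha-beta neurons (SE 0.49, edgeR adjusted p = 0.0333), from 252 ± 108 CPM (SD, n = 4) to 89.6 ± 63.8 CPM (SD, n = 5), and Plod was called lower over the same step in gamma neurons. That is 1 of 13 in each type, where 7.67% of all genes in the first and 4.27% in the second were called lower.

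Other haem peroxidases were sparse, and hemocyte genes were mixed. Pxt, cysu, Irc and Duox had counts in 1, 2, 14 and 2 of 58 libraries, against 58 for Pxn. The hemocyte gene Hml, a hemolectin, had counts in 15 libraries and at most 6.29 CPM, and He in 2; crq, a scavenger receptor, had counts in 56 libraries with a median of 30.1 CPM. In adult gamma neurons, where the mean of Pxn was highest, Hml had a count in 1 of 5 libraries, at 0.0637 CPM, and the sum of the 3 hemocyte markers, carried by crq, had a median of 48.1 and a maximum of 92.8 CPM, while Irc reached 41.4 CPM in 1 library. In adult alpha-beta neurons the hemocyte sum had a median of 89.8 CPM and a maximum of 171 CPM, and the part of such cells in the Pxn values was not tested. NimC1, eater, srp and Sr-CI were not matched by name to a counted gene, so 3 of the 7 listed hemocyte genes were used. Fat body genes summed to 1.36 to 1323 CPM, and Lsp2, a larval storage protein, had counts in 13 of 58 libraries.

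**Figure D5:**
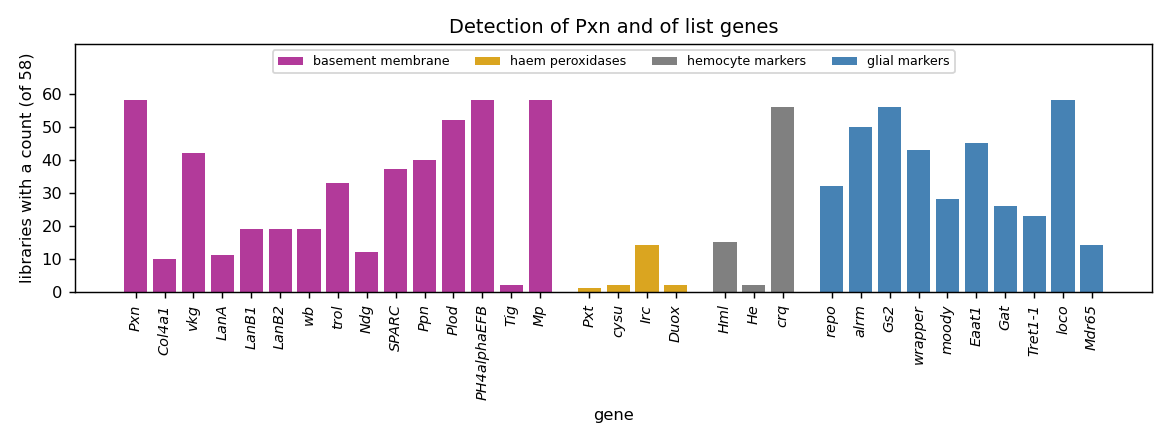
Number of the 58 libraries with at least 1 count for Pxn, the other basement membrane genes, other haem peroxidases, hemocyte markers and glial markers; bars start at 0. Pxn, PH4alphaEFB, Mp and loco reach 58, while the 4 other haem peroxidases reach 1 to 14 and Hml 15.

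The gene with a pattern most like that of jus over the 12 group means of log2 CPM was orb2, a translational regulator of the CPEB family, with a Pearson r of 0.981. It was followed by dpr14 (r = 0.970), an immunoglobulin-domain surface protein, Rbp (r = 0.970), the RIM-binding protein of active zones, cac (r = 0.964), the presynaptic calcium channel, and rad (r = 0.954), a gene of olfactory memory. In the same group means, 90 of 10071 other genes, 0.894%, had an r of at least 0.9 with jus. The points share libraries and depth, and the adult groups stand far from the pupal ones, so these values describe likeness only. Mean orb2 went from 58.1 CPM at 18 h to 114 CPM at 30 h and 440.1 CPM in adult alpha-beta neurons.

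The nearest patterns to jdp were CG32278, CG14762, CG30158, bun, a TSC22-domain gene, and CG43902, with r between 0.953 and 0.958 over the 12 groups, and 47 genes had an r of at least 0.9. No gene reached 0.9 with Pxn over the 12 groups. Its nearest were put, a type II receptor of the activin and BMP pathways (r = 0.8996), CG17816 (0.887), CG32204 (0.885), CG32091 (0.857) and asRNA:CR43464 (0.855). Mean CG32091 was 0.0149, 0 and 0 CPM in alpha-beta neurons at 18 h, 30 h and adult. In gamma neurons it was 0.190, 3.24 and 15.5 CPM. Mean asRNA:CR43464 was at most 3.74 CPM in these 6 groups. Among the 3 genes themselves r was 0.861 for jus with jdp, 0.786 for jdp with Pxn and 0.573 for jus with Pxn.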

How the data were processed

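Per the file headers, the authors deposited 1 table of raw counts per gene and library, with a normalized signal, a log2-like variance-stabilized value and, for 16 comparisons, log2 fold changes and p-values. STAR is named per the submitters' processing notes; its version, the counting program, the build and the use of strand are not given in the sources used here. Only the deposited counts were used, apart from values credited to the authors' deposited table. Columns of no sample numbered 0. Genes were kept by filterByExpr (minimum count 10, minimum total 15), libraries were scaled by TMM, and all 12 groups entered 1 edgeR 4.0.16 quasi-likelihood fit (R 4.3.3), two-sided, with Benjamini-Hochberg adjustment; the common coefficient of biological variation was 1.34. Standard errors were worked back from the F statistic. Levels are TMM-scaled CPM. Comparisons sharing 18 or 30 h libraries were described without a p. Alternatives were DESeq2 1.42.0, RLE scaling, no filter, only the groups compared, a replicate block, a sheet set block, each library left out in 38 fits, and, added after the values were seen, sheet set 5 left out. A sheet set is 12 consecutive sample sheet numbers in the library names. Libraries of a group differed by more than counting error: chi-square per degree of freedom was 89.5 to 934 over 114 pairs. That does not show that they came from separate flies. On simulated counts with a spread lower than that of these data, the fit was tested for recovery of known changes. That test cannot tell how many real changes were missed here. The members and lists were chosen with earlier results of these data known. It is not known whether the stages between 18 and 30 h took part in choosing the 3 genes. Named were the 3 genes, the 5 genes most like each over 12 groups, up to 3 called genes per list and comparison, defining markers and each marker list's most abundant gene; others are said to have been named after their values were seen. Gene overlaps and chromosome arms are from Ensembl release 115; no sequence is printed.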

Additional observations from a re-analysis of the deposited data

Results flagged for a closer look

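In 3 of 33 group checks, 1 library stood apart from the rest of its group by Dixon's 95% limit, and chance alone flags about 5% of groups. The jus level of gamma neurons at 18 h, replicate 1, was 49.3 CPM, the highest of its group. At 30 h, replicate 3 of gamma neurons was the highest of its group for jus, with 102 CPM. In alpha-beta neurons at 18 h, replicate 5 was the lowest of its group for jdp, with 93.0 CPM, and its mushroom body marker sum was also the lowest of that group, 4506 CPM, while its glial sum, 100.3 CPM, was within the group's range; their part in the jdp value was not tested.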

How the results depend on the processing

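The calls of jus and jdp from 27 h to adult, and of Pxn between cell types in adults, held under all alternatives run. Other results moved; where no cause is named, the cause was not tested. For jus, gamma against alpha-beta in adults turned to -0.015 with RLE scaling, -0.016 with the sheet set block and -0.015 with DESeq2, and the 27 against 21 h difference between types turned to 0.14 and 0.50 with the replicate block and the sheet set block. For jdp, gamma against alpha-beta became called with the replicate block (0.84 in adults, 0.65 over 21 to 27 h), and over 21 to 27 h with the sheet set block (0.82) and DESeq2 (0.78). Pxn from 27 h to adult in gamma became called with DESeq2 (0.95). Mean correlations of same-numbered deviations were 0.0084 to 0.061. The same-numbered library was the best match in 4 of 4 pairs for alpha-beta at 27 and 21 h. It was the best match in 0 of 2 pairs between the types at 27 h. Whether replicate numbers pair libraries was thus not settled, and the replicate block changed no other call. Without sheet set 5, jdp was called between types (0.76 in adults, 0.68 over 21 to 27 h). That set was chosen for its low jdp values and so gives no support for the jdp call. Pxn between types over 21 to 27 h was then not called (0.65). Uncalled values changed sign for jus between types over 21 to 27 h (-0.016) and for jus from 21 to 27 h in gamma (-0.17). So did Pxn from 27 h to adult in alpha-beta (-0.034). The difference between types in the jus step from 27 h to adult also changed sign (0.24). Counts of genes called were 25 in adults between types with only the groups compared and 1484 with DESeq2 (363 otherwise), 897 with DESeq2 and 66 without sheet set 5 over 21 to 27 h (133), 240 and 454 with DESeq2 for 27 against 21 h in alpha-beta and gamma and 1 in gamma without sheet set 5 (0 each), and 446 for the difference (0). From 27 h to adult they were 710 and 2398 in alpha-beta (1219), 238, 1925 and, without sheet set 5, 441 in gamma (734), and 5 and 852 for the difference (32). Leaving out each library in turn gave -0.093 to 0.15 for jus between types in adults, -0.086 to 0.41 over 21 to 27 h, and -0.78 to 0.35 for its 27 against 21 h difference. For jdp between types over 21 to 27 h it gave 0.67 to 0.82, called without alpha-beta 24 h replicate 6. Pxn ranged from -0.019 to 0.36 in the 27 against 21 h difference and from -0.0029 to 0.30 from 27 h to adult in alpha-beta. Gene counts ranged from 60 to 157 between types over 21 to 27 h, 0 to 1 for 27 against 21 h in gamma and for the difference, 440 to 795 from 27 h to adult in gamma, and 18 to 80 for that difference. The median of all genes from 27 h to adult in alpha-beta, -0.13, was -0.41 with the replicate block, -0.39 with the sheet set block and 0 with DESeq2.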
